A study of Mus musculus with 8 samples.

Results

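The 10 genes described here encode interleukin-1 (IL-1) family cytokines, their inhibitors and receptors, and parts of the inflammasome. They are Il1a, Il1b, Il18, Il1rn, Il1r2, Il18bp, Il1rap, Nlrp3, Casp1 and Casp4, taken by gene symbol from the 21051 genes listed in the deposited tables, and all 10 had values and passed the filter on low counts. They were measured in tumor-associated macrophages (TAMs), sorted as CD45+F4/80+ cells on day 14 from melanomas of the mouse B16 line grown under the skin. RNA was sequenced in 4 libraries from WT mice (TAM-WT) and 4 from Colec11-/- mice (TAM-KO) to ask how the phenotype of TAMs differs without collectin-11 (CL-11), a soluble lectin that starts the lectin pathway of complement. All mice were of the C57BL/6 strain, and per the study's methods they were young adult males with WT littermates as controls. The knockout mice lacked Colec11 in every cell, while the injected B16 cells were not knocked out. The labels number 4 replicates per group, which the study counts as 4 mice each. Both groups carried the tumor, and the labels name no other treatment.

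IL-1α and IL-1β bind the same receptor, IL-1R1, which signals through MyD88 after it pairs with the accessory chain encoded by Il1rap. Il1rn encodes the receptor antagonist, Il1r2 a decoy receptor, and Il18bp a secreted protein that binds IL-18 and keeps it from its receptor. IL-1β and IL-18 are made as precursors that caspase-1 cleaves once an inflammasome such as that of NLRP3 has assembled, so their mRNA level does not show how much active cytokine is released. Macrophages are a main source of IL-1 in tumors, where the cytokine is known for drawing in myeloid cells and for promoting the growth of blood vessels.

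The 7 complete libraries held 16225362 to 17280267 reads on genes. The table of TAM-KO replicate 1 lacks an unbroken run of 5311 genes that includes 9 of the 10 genes described here, all except Nlrp3. For Il1a, Il1b, Il1rn, Il18bp and Casp4 its level was taken from the table of the whole series. That table lists a selection of differing genes from the authors' own comparison, so its values exist only for genes selected by their difference. For this reason they did not enter the main test. For Il1r2, Il1rap, Il18 and Casp1, TAM-KO replicate 1 has no value. The test of these 9 genes therefore used 3 TAM-KO libraries, and that of Nlrp3 used 4. Colec11 had 0 to 4 reads per TAM-WT library and 1 read per TAM-KO library, too few to check the genotype. The macrophage markers were abundant in both groups, with Adgre1, which encodes F4/80, at 186 to 239 FPKM in TAM-WT and 182 to 200 FPKM in 3 TAM-KO libraries. Over all 8 macrophage markers, the summed level was 5515 to 6826 FPKM in TAM-WT and 5999 to 6635 FPKM in 3 TAM-KO libraries. FPKM scales reads by the length of the gene and by library depth, so levels can be compared between genes.

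Markers of other cells were present and differed between libraries, although a CD45+F4/80+ gate would remove melanoma cells, T cells, NK cells and neutrophils. The 7 melanoma cell markers summed to 4382 FPKM in TAM-WT replicate 2 and to 1958 to 2640 FPKM in the other TAM-WT libraries. In TAM-KO they summed to 3817 to 5057 FPKM, so TAM-WT replicate 2 lay among the TAM-KO libraries for these markers. Of the T cell and NK cell markers, the 7 with a value in all 8 libraries summed to 19.2 FPKM in TAM-WT replicate 1 and to 0.69 to 0.99 FPKM in the other TAM-WT libraries, against 27.1, 63.0, 55.9 and 17.4 FPKM in TAM-KO replicates 1 to 4. TAM-WT replicate 1 thus lay among the TAM-KO libraries for these markers. Of the neutrophil markers, the 10 with a value in all 8 libraries summed to 220 FPKM in TAM-KO replicate 1 and to 48.1 to 75.3 FPKM in the other 7 libraries. S100a8 and S100a9, the main cytosolic proteins of neutrophils, were at 73.46 and 80.03 FPKM in TAM-KO replicate 1, and at most 15.8 and 13.3 FPKM elsewhere. Ngp, a neutrophil granule gene, was listed at 0 in each library with a value, but TAM-KO replicate 1 has none. Ly6g of the same list had 0 reads in TAM-KO replicate 1 and at most 2 in any library. Cxcr2 and Mmp9 were highest in TAM-KO replicate 1, at 2.37 and 2.47 FPKM. The 5 monocyte markers with a value in all 8 libraries summed to 426 to 656 FPKM in TAM-WT and 422 to 541 FPKM in TAM-KO, but single genes moved apart. Ly6c2, which may share reads with a close copy, was at 12.04 to 54.2 FPKM in TAM-WT and 78.4 to 161 FPKM in TAM-KO, and Plac8 was at 26.2 to 58.9 and 98.4 to 151 FPKM. Both rose in edgeR's test, while F13a1 fell, with 325 to 533 FPKM in TAM-WT and 99.4 to 183 FPKM in TAM-KO. Summed levels of the full lists were lower for dendritic cells, at 7.64 to 18.2 and 9.59 to 11.8 FPKM, for B cells, at 4.37 to 7.18 and 5.70 to 10.9 FPKM, for fibroblasts, at 2.06 to 6.19 and 2.77 to 4.13 FPKM, and for endothelial cells, at 2.21 to 5.76 and 5.43 to 9.87 FPKM, in TAM-WT and 3 TAM-KO libraries. In such bulk libraries, fewer cells of a type and less RNA per cell cannot be told apart. TAM-WT replicate 1 and TAM-KO replicate 1 stood apart in these markers, and TAM-WT replicate 2 did in the melanoma cell markers. Results that rest on these libraries are given with and without them.

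Expression was compared with edgeR's quasi-likelihood test on the deposited read estimates, with p-values adjusted by the Benjamini-Hochberg method over all 12412 genes tested. At an adjusted p of at most 0.05, Il1a fell and Il18bp rose in TAM-KO, and both also met the study's threshold of a 2-fold change. Of all genes tested, 9.81% passed at this adjusted p, 4.58% higher and 5.24% lower in TAM-KO, so 1 gene of 10 in each direction is near the share in the whole table. With the 2-fold threshold added, 1.41% of all genes were higher and 1.12% lower. At an unadjusted p under 0.05, 2 of the 10 genes were higher and 4 lower, while 14.9% and 15.7% of all genes were. The median log2 fold change of the 10 genes was -0.19, against 0.0016 over all genes tested, with 5 genes above and 5 below 0. Read as FPKM of single libraries, each of the 10 genes overlapped between the groups, while 13.5% of all genes tested were higher and 5.41% lower in TAM-KO without overlap.

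**Figure D1:**
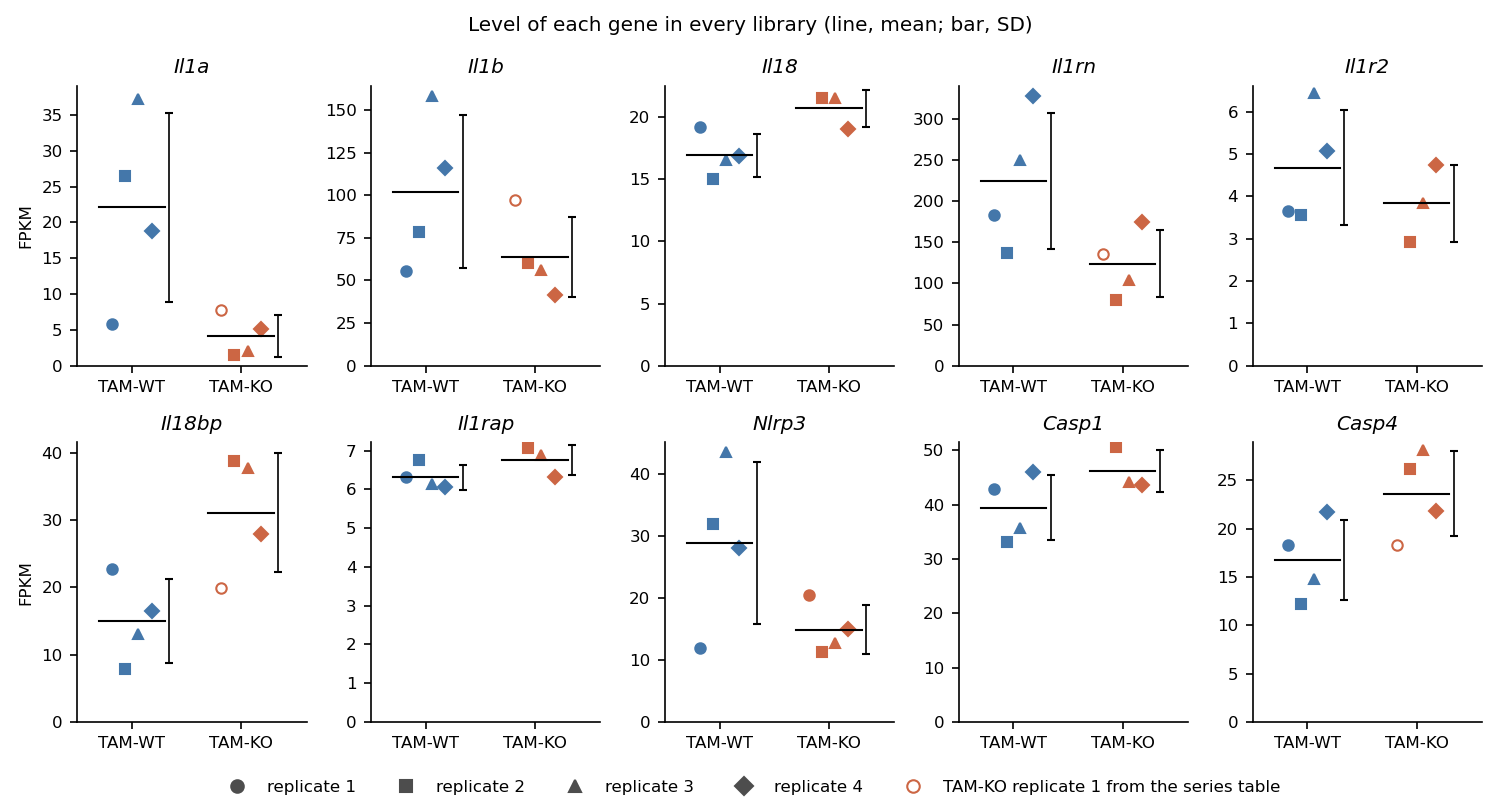
Level of each of the 10 genes in FPKM (vertical axes, linear from 0) in every library of TAM-WT (blue) and TAM-KO (orange), with the mean as a line and the SD as a bar; open circles are values of TAM-KO replicate 1 from the series table. TAM-WT replicate 1 lies low for Il1a (5.85 FPKM) and Nlrp3 (11.8 FPKM), and TAM-KO replicate 1 lies highest of its group for Il1a, Il1b and Nlrp3 and lowest for Il18bp and Casp4.

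The genes lie on 6 chromosomes (RefSeq, GRCm38.p6). Il1a (NCBI gene 16175) spans chromosome 2, 129299609 to 129310186, minus strand, and Il1b (16176) lies on the same strand at 129364569 to 129371164. Il1rn (16181) is on the plus strand of the same chromosome at 24336860 to 24351491. Il18 (16173) is on chromosome 9, 50554700 to 50581841, plus strand, and Casp1 (12362) and Casp4 (12363) are neighbors on its plus strand at 5298517 to 5307281 and 5308849 to 5336791. Il18bp (16068) is on chromosome 7, 102015074 to 102018232, minus strand, and Nlrp3 (216799) on chromosome 11, 59541569 to 59566955, plus strand. Il1r2 (16178) is on chromosome 1, 40084692 to 40125230, plus strand, and Il1rap (16180) on chromosome 16, 26581509 to 26730128, plus strand. The span of 5 of the 10 genes overlaps another annotated gene, and since no strand setting of the counting is given in the sources used here, reads of overlapping genes could have been assigned to either. For Il1a, Il1b, Il1r2 and Il1rap the partner was not in the tables used here. Il18 overlaps Bco2, at 1.56 to 4.74 FPKM, and Tex12, at 0.00 to 0.33 FPKM.

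Promoter sequence is shown for Il1a and Il18bp, the genes that passed the test in opposite directions, and for Il1b and Il1rn, the other ligand of IL-1R1 and its antagonist. Each line gives the 150 bases before the transcription start, 5′ to 3′ on the strand of the gene, from RefSeq (GRCm38.p6), with letter matches to the searched motifs in capitals. The regions are chr2:129309973-129310122 (minus strand), chr2:129371140-129371289 (minus), chr2:24336710-24336859 (plus) and chr7:102018233-102018382 (minus), in the order shown.
Il1a: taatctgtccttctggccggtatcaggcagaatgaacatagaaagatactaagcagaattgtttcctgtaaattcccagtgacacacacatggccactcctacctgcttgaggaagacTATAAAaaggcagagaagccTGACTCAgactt
Il1b: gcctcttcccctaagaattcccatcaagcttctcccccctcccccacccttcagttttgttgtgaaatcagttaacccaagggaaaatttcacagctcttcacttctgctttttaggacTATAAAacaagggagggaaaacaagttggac
Il1rn: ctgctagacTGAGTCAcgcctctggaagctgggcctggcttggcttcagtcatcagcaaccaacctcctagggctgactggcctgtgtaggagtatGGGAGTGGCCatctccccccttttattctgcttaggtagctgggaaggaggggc
Il18bp: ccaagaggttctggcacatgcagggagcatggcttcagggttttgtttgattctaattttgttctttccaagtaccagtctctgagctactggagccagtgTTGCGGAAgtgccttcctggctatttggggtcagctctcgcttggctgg

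The motifs were searched on both strands of windows from 250 bases before to 50 bases after the start, of which 14 cover the 10 genes and 32851 cover all genes with a window. The NF-kB type motif, GGGA and CC with any 4 bases between them, was in 20.7% of all windows, the AP-1 motif TGANTCA in 7.81%, the C/EBP motif TTGCNNAA in 10.8%, the TATA box TATAAA in 13.6% and the interferon-stimulated response element core, GAAA and GAAA with any 2 bases between them, in 3.44%. Il1a and Il1b each held a TATA box, which begins at position -32 and -31 from the start. Il1a also held an AP-1 match at -12. The Il1rn window of the most upstream start held an AP-1 match at -141 and an NF-kB type match at -54, and Il18bp a C/EBP match at -49. Among the other genes, NF-kB type matches began at -186 in Nlrp3, at -92 in Casp4, where the pattern matches on both strands, and at -119 in Il1rap, which also held the interferon-stimulated response element core at 20. Il18 held a TATA box on the opposite strand at -175, and a downstream start of Il1rn at 14. These are matches of letters, and binding was not measured.

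Il1a encodes IL-1α, which is active without inflammasome cleavage and is released by damaged cells. Its level was 5.85, 26.5, 37.3 and 18.8 FPKM in TAM-WT replicates 1 to 4 and 7.75, 1.46, 2.06 and 5.14 FPKM in TAM-KO replicates 1 to 4. All TAM-KO libraries lay below TAM-WT replicates 2 to 4, while TAM-WT replicate 1 lay below TAM-KO replicate 1, so the groups overlapped through these libraries. The mean of Il1a fell from 22.1 ± 13.2 FPKM in TAM-WT to 4.10 ± 2.92 FPKM in TAM-KO (SD, n = 4 each), and the log2 fold change was -3.05 ± 0.70 (SE; 95% interval -4.65 to -1.45, edgeR adjusted p = 0.0362, 3 TAM-KO libraries tested). With the value of TAM-KO replicate 1 filled in from the series table, the log2 fold change was -2.55 (adjusted p = 0.0425), and without TAM-WT replicate 1 it was -3.37 (adjusted p = 0.0137). Without TAM-WT replicate 2 it was -2.98 (edgeR adjusted p = 0.0298). The call was lost when TAM-WT replicate 3 (adjusted p = 0.0904) or 4 (0.0672) was left out, and likewise for TAM-KO replicate 2 (0.134) and replicate 3 (0.129). Behind these values lay 172 to 1098 reads per library in TAM-WT and 41 to 152 in the 3 tested TAM-KO libraries. Among TAM-WT libraries, replicate 1 had the highest level of T cell and NK cell markers and the lowest of Il1a, and TAM-KO had higher markers and lower Il1a than TAM-WT replicates 2 to 4. Among those 3 libraries, the one with the most of these markers, replicate 3, had the highest Il1a. Each of the 7 summed markers had at most 10 reads in those libraries, so the order of the markers there is uncertain. In TAM-KO the markers were highest and Il1a lowest in replicates 2 and 3. The part of these cells in the result was not tested.

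Il1b, which encodes the precursor of IL-1β, was the more abundant ligand, at 55.7, 78.4, 158 and 116 FPKM in TAM-WT replicates 1 to 4 and 96.9, 59.99, 56.4 and 41.6 FPKM in TAM-KO replicates 1 to 4. TAM-WT replicates 3 and 4 lay above all TAM-KO libraries, whereas TAM-WT replicate 1 lay below TAM-KO replicates 1 to 3. The means were 102 ± 44.9 and 63.7 ± 23.5 FPKM (SD, n = 4 each). Its log2 fold change of -1.08 ± 0.35 (SE) did not pass (95% interval of the single gene -1.90 to -0.27, edgeR adjusted p = 0.0829, 3 TAM-KO libraries tested). TAM-KO replicate 1, the library with the high neutrophil markers, had the highest Il1b of its group, and with its value filled in the log2 fold change was -0.81 (adjusted p = 0.159). Il1b passed once TAM-WT replicate 1 was left out (adjusted p = 0.0343) and once TAM-WT replicate 2 was (0.0486). Neutrophils are a known source of Il1b. They lack F4/80, yet neutrophil markers were present after the sort, and the part of these cells in the level of TAM-KO replicate 1 was not tested.

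Il18 differed from the IL-1 ligands in its small spread between libraries. IL-18 is a cytokine that drives interferon gamma production by T cells and NK cells. Its mRNA was at 19.2, 15.01, 16.6 and 16.9 FPKM in TAM-WT replicates 1 to 4 and at 21.5, 21.6 and 19.0 FPKM in TAM-KO replicates 2 to 4. The lowest TAM-KO library was just below TAM-WT replicate 1. The log2 fold change was 0.20 ± 0.11 (SE; 95% interval -0.05 to 0.44, edgeR adjusted p = 0.257), so a rise above 0.44 on the log2 scale lies outside the interval.

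Il1rn, the gene of the IL-1 receptor antagonist, had the highest level of the 10 genes in both groups. It was at 184, 137, 251 and 328 FPKM in TAM-WT replicates 1 to 4 and at 136, 80.5, 104 and 174 FPKM in TAM-KO replicates 1 to 4. TAM-KO replicate 4 lay between TAM-WT replicates 2 and 1, and the other TAM-KO libraries lay below all TAM-WT libraries. The means were 225 ± 83.0 and 124 ± 40.8 FPKM (SD, n = 4 each), with a log2 fold change of -1.02 ± 0.38 (SE; 95% interval of the single gene -1.88 to -0.16, edgeR adjusted p = 0.112, 3 TAM-KO libraries tested). It did not pass, with TAM-KO replicate 1 filled in either (-0.98, adjusted p = 0.0828), but passed without TAM-WT replicate 2 (adjusted p = 0.0414). Il1r2, the decoy receptor that binds IL-1 without signaling, was the least abundant of the 10 genes, at 3.56 to 6.43 FPKM in TAM-WT and 2.92 to 4.74 FPKM in 3 TAM-KO libraries. Its log2 fold change was -0.39 ± 0.29 (SE; 95% interval -1.05 to 0.27, edgeR adjusted p = 0.398).

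Il18bp, the gene of the IL-18 binding protein, moved in the opposite direction to Il1a. It was at 22.8, 7.81, 13.02 and 16.5 FPKM in TAM-WT replicates 1 to 4 and at 19.95, 38.8, 37.7 and 28.0 FPKM in TAM-KO replicates 1 to 4. TAM-KO replicates 2 to 4 lay above all TAM-WT libraries, and TAM-KO replicate 1 lay below TAM-WT replicate 1. Il18bp rose from 15.03 ± 6.29 FPKM in TAM-WT to 31.1 ± 8.88 FPKM in TAM-KO (SD, n = 4 each), and the log2 fold change was 1.11 ± 0.29 (SE; 95% interval 0.44 to 1.77, edgeR adjusted p = 0.0496, 3 TAM-KO libraries tested). This adjusted p is just inside the threshold. With the value of TAM-KO replicate 1 filled in, the log2 fold change was 0.95 and the adjusted p 0.0729, so the call was lost. It held without TAM-WT replicate 1 (1.34, adjusted p = 0.0293) and without TAM-WT replicate 2 (0.88, adjusted p = 0.0129), and was lost without TAM-WT replicate 3, TAM-WT replicate 4 or any of the TAM-KO libraries, where the adjusted p ran from 0.0597 to 0.153. TAM-KO replicate 1 does not enter the test of Il18bp itself and acts there through the fit of the other genes. Among TAM-WT libraries Il18bp was highest in replicate 1, which also had the highest T cell and NK cell markers, and among TAM-KO libraries it was highest in replicates 2 and 3, which had the highest of these markers. The melanoma cell markers were also higher in TAM-KO, but within TAM-WT they were highest in replicate 2, which had the lowest Il18bp. The monocyte markers Ly6c2 and Plac8 were higher in TAM-KO as well, while F13a1 of the same list was lower. Of the 7 monocyte markers, 4 had a log2 fold change above 0 and 3 below, among them Vcan (-0.38) and Ccr2 (-0.05). Within TAM-WT, Ly6c2 and Plac8 were lowest in replicate 2. Within TAM-KO, both genes and the summed T cell and NK cell markers were lowest in replicate 4, whereas Il18bp was lowest in replicate 1. The part of these cells in the level of Il18bp was not tested.

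Il1rap, the accessory chain of the IL-1 receptor, was the least variable of the 10 genes. It was at 6.31, 6.77, 6.13 and 6.06 FPKM in TAM-WT replicates 1 to 4 and at 7.08, 6.90 and 6.33 FPKM in TAM-KO replicates 2 to 4. The highest library of each group was 1.12 times the lowest. The log2 fold change was 0.01 ± 0.07 (SE; edgeR adjusted p = 0.924), and its 95% interval of -0.14 to 0.17 bounds the change of this gene more tightly than that of the other 9. Its partner chain Il1r1, the signaling receptor, was near the limit of detection, at a mean of 0.280 FPKM in TAM-WT and 0.207 FPKM in TAM-KO with at most 28 reads in a library.

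Nlrp3 encodes the sensor of the inflammasome that responds to cell damage and to potassium loss, and it is the only one of the 10 genes with a value of TAM-KO replicate 1 in that library's own table. It was at 11.8, 31.8, 43.4 and 28.0 FPKM in TAM-WT replicates 1 to 4 and at 20.4, 11.3, 12.8 and 15 FPKM in TAM-KO replicates 1 to 4. As with Il1a, TAM-WT replicates 2 to 4 lay above all TAM-KO libraries, and TAM-WT replicate 1 lay among them. The means were 28.8 ± 13.1 and 14.9 ± 3.98 FPKM (SD, n = 4 each), with a log2 fold change of -1.08 ± 0.35 (SE; 95% interval of the single gene -1.88 to -0.29, edgeR adjusted p = 0.0754, 4 TAM-KO libraries tested). It did not pass, and the adjusted p was 0.0148 without TAM-WT replicate 1, 0.0739 without TAM-WT replicate 2 and 0.0859 without TAM-KO replicate 1.

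The genes of the inflammatory caspases had log2 fold changes above 0, unlike Nlrp3, and neither passed. Casp1, which encodes the protease that cleaves pro-IL-1β and pro-IL-18, was at 42.9, 33.1, 35.8 and 46.0 FPKM in TAM-WT replicates 1 to 4 and at 50.6, 44.3 and 43.7 FPKM in TAM-KO replicates 2 to 4. TAM-KO replicates 3 and 4 lay between TAM-WT replicates 1 and 4. The log2 fold change was 0.12 ± 0.13 (SE; 95% interval -0.16 to 0.41, edgeR adjusted p = 0.540). Casp4, which in mice encodes caspase-11, a receptor of lipopolysaccharide in the cytosol, was at 18.4, 12.3, 14.8 and 21.7 FPKM in TAM-WT replicates 1 to 4. It was at 18.3, 26.2, 28.2 and 21.9 FPKM in TAM-KO replicates 1 to 4, so that TAM-KO replicates 2 to 4 lay above all TAM-WT libraries and TAM-KO replicate 1 lay within their range. The log2 fold change of Casp4 was 0.50 ± 0.19 (SE; 95% interval of the single gene 0.06 to 0.94, edgeR adjusted p = 0.122, 3 TAM-KO libraries tested) and 0.39 with TAM-KO replicate 1 filled in (adjusted p = 0.209). It did not pass in the edgeR fits that left out 1 library, where its adjusted p ran from 0.0696 to 0.304, and its adjusted p was 0.0848 from DESeq2.

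**Figure D2:**
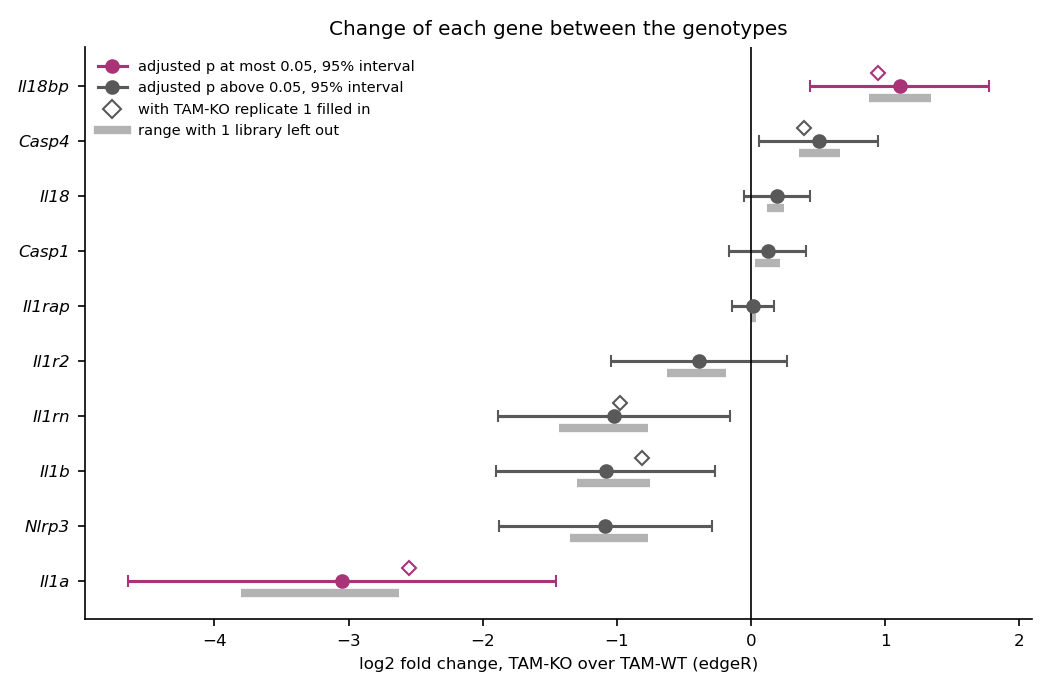
Log2 fold change of TAM-KO over TAM-WT from edgeR (horizontal axis) for each of the 10 genes, with the 95% interval of the single gene as a line, the value with TAM-KO replicate 1 filled in as a diamond and the range over the fits that left out 1 library as a grey bar. Il1a at -3.05 and Il18bp at 1.11 passed an adjusted p of 0.05, and filling in TAM-KO replicate 1 moved Il1a to -2.55 and Il18bp to 0.95.

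Across the 10 genes, the order of the levels was alike at the top in both groups, with Il1rn above Il1b and Il1b above Casp1 by mean FPKM. In TAM-WT the next genes were Nlrp3, Il1a, Il18, Casp4 and Il18bp, at means of 28.8, 22.1, 16.9, 16.8 and 15.03 FPKM, each with a range that overlapped the gene above it. In TAM-KO they were Il18bp, Casp4, Il18 and Nlrp3, at means of 31.1, 23.6, 20.7 and 14.9 FPKM, and again each of Casp4, Il18 and Nlrp3 overlapped the gene above it. Il1a ranked 5 in TAM-WT and 9 in TAM-KO. The range of Casp1 was clear of that of Il1b in TAM-WT, and that of Il1rap was clear of Il18bp in TAM-WT and of Nlrp3 in TAM-KO.

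The spread between libraries of the same group differed from gene to gene. Il1a varied most, with the highest library 6.37 times the lowest in TAM-WT and 5.31 times in TAM-KO. Nlrp3 followed in TAM-WT, at 3.67 times, then Il18bp at 2.92, Il1b at 2.84 and Il1rn at 2.39 times. By contrast, the ratio was 1.28 for Il18, 1.39 for Casp1 and 1.12 for Il1rap in TAM-WT.

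Since the cytokines act against their inhibitors, the ratio of FPKM was formed within each library as a description, with no test. The ratio of Il1b to Il1rn was 0.303, 0.571, 0.631 and 0.354 in the TAM-WT libraries, in order of replicate, against 0.710, 0.746, 0.541 and 0.238 in the TAM-KO libraries. It overlapped almost fully between the groups, with means of 0.465 ± 0.160 and 0.559 ± 0.231 (SD, n = 4 each), and in each library the antagonist exceeded the ligand. The ratio of Il1a to Il1rn was 0.0319, 0.193, 0.149 and 0.0573 in TAM-WT and 0.0568, 0.0181, 0.0198 and 0.0295 in TAM-KO, with TAM-WT replicate 1 among the TAM-KO libraries. The ratio of Il18 to Il18bp was 0.844, 1.92, 1.27 and 1.02 in TAM-WT and 0.555, 0.571 and 0.679 in TAM-KO replicates 2 to 4. These groups did not overlap, but TAM-KO replicate 1, whose Il18bp was the lowest of its group, has no value of Il18. The ratio of Il1rap to Il1r2 was 0.953 to 1.90 in TAM-WT and 1.34 to 2.42 in 3 TAM-KO libraries.

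**Figure D3:**
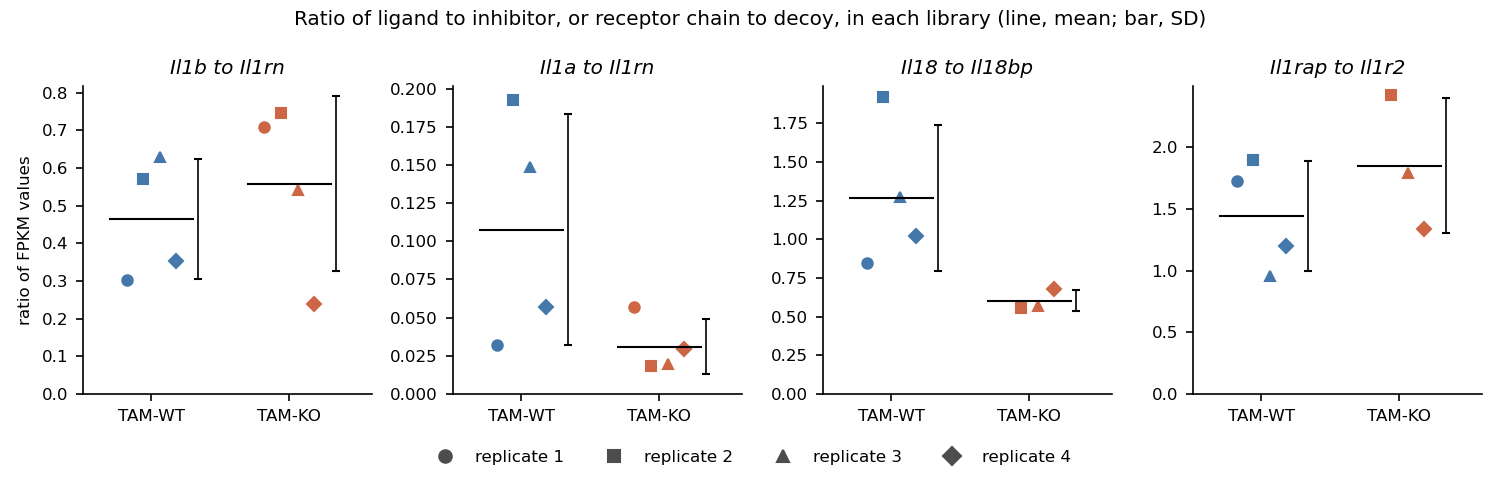
Ratio of FPKM of a ligand to its inhibitor, or of the receptor chain Il1rap to the decoy Il1r2, in every library (vertical axes, linear from 0), with the mean as a line and the SD as a bar. Il1b to Il1rn overlaps between the groups (means 0.465 and 0.559), while Il18 to Il18bp is at 0.844 or more in TAM-WT and at most 0.679 in the 3 TAM-KO libraries with a value.

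Several pairs of the genes varied together across libraries. Correlations are given as descriptions on the log2(CPM + 1) scale, over 8 libraries or 7 where TAM-KO replicate 1 has no value, and the libraries share the genotype difference and the makeup of the sort. Il1a and Nlrp3 had a Pearson r of 0.954 over 8 libraries, and 0.947 after the group means were removed. For Il1b and Nlrp3 r was 0.870 and 0.798 within groups, and for Il1a and Il1b it was 0.789 and 0.667. Il18bp and Casp4 had an r of 0.916 and 0.888 within groups over 8 libraries, and Il18 and Il18bp had 0.918 and 0.887 over 7. The caspase genes Casp1 and Casp4, which are neighbors on chromosome 9, had an r of 0.851 and 0.893 within groups over 7 libraries. The antagonist Il1rn had an r of 0.878 with Il1r2 (0.879 within groups, 7 libraries) and of 0.642 with Il1b (0.412 within groups, 8 libraries). Il1a ran against Il18bp, at -0.880 and -0.724 within groups. With 4 libraries in a group, values of this size can rest on 1 or 2 libraries.

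**Figure D4:**
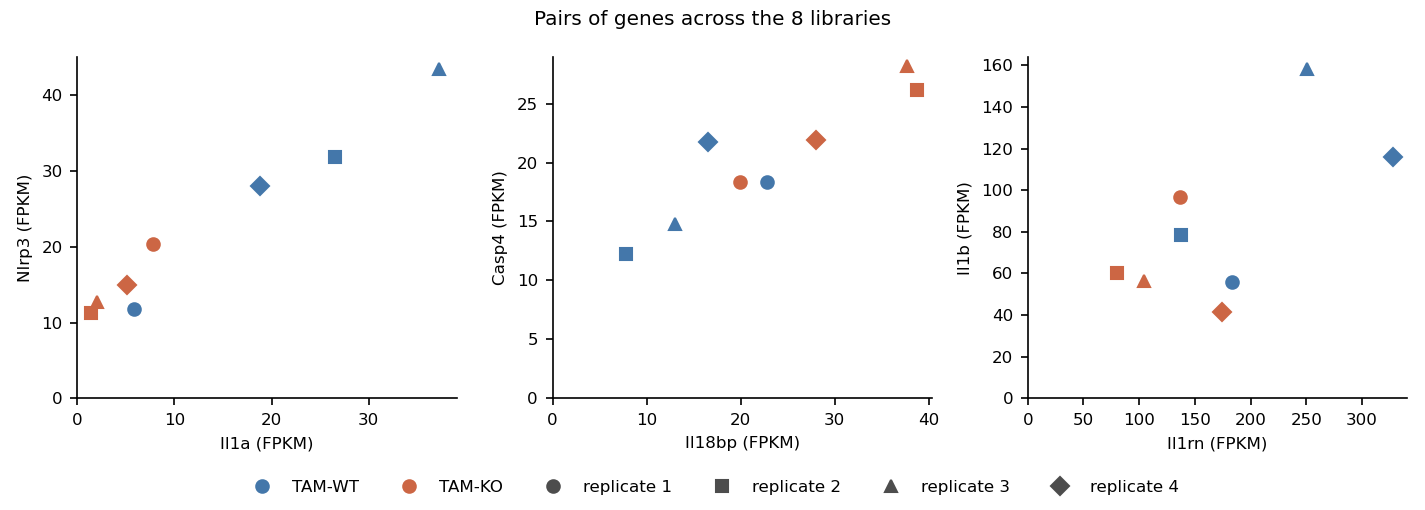
FPKM of pairs of genes in the 8 libraries (linear axes from 0), with Nlrp3 against Il1a, Casp4 against Il18bp and Il1b against Il1rn; color gives the group and the marker shape the replicate. TAM-WT replicate 1 lies at the low end with the TAM-KO libraries for Il1a (5.85 FPKM) and Nlrp3 (11.8 FPKM), and Il1b and Il1rn scatter more than the other pairs.

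Of 10946 genes compared, those most like Il1b across libraries by Pearson r were Ythdf3 (0.985, 8 libraries), Slc35b1 (0.964, 7 libraries), Taf5l (0.962, 7), Usp15 (0.956, 7) and Rab11fip1 (0.952, 8). None of the 10 genes and no other IL-1 or inflammasome gene was among these 5.

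Of 48 other genes of IL-1 signaling and the inflammasome, 45 had a value and 42 were tested, 16 of them on 3 TAM-KO libraries. In edgeR's quasi-likelihood test 2 were higher and 2 lower in TAM-KO, close to the 4.58% and 5.24% of all genes, and the median log2 fold change was -0.02. Sigirr and Casp12 rose, and Il1rl2 and Tollip fell. The FPKM of 12 of the 42 genes did not overlap between the groups, these 4 among them, with 7 higher and 5 lower in TAM-KO. Over all genes tested 13.5% were higher and 5.41% lower without overlap.

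Among receptors, Sigirr encodes an inhibitory member of the IL-1 receptor family. It was at 1.65, 1.44, 1.01 and 1.54 FPKM in TAM-WT replicates 1 to 4 and 2.42, 3.86, 2.46 and 2.81 FPKM in TAM-KO replicates 1 to 4. Its log2 fold change was 1.03 ± 0.21 (SE; edgeR adjusted p = 0.0253, 4 TAM-KO libraries tested). The call was lost when TAM-WT replicate 3 (adjusted p = 0.0723) was left out, as well as with either TAM-KO replicate 2 (0.0882) or replicate 3 (0.0719) left out. Il1rl2, the receptor of the IL-36 cytokines, fell from 2.91 ± 0.566 FPKM in TAM-WT to 1.47 ± 0.511 FPKM in TAM-KO (SD, n = 4 each), with a log2 fold change of -1.07 ± 0.28 (SE; edgeR adjusted p = 0.0488, 3 TAM-KO libraries tested). It passed without TAM-WT replicate 2 or TAM-KO replicate 4, and the adjusted p was 0.0591 to 0.168 without any of the other 6 libraries. Il1rl1, the IL-33 receptor, was low at a mean of 0.500 FPKM in TAM-WT, and had a log2 fold change of -1.43 that did not pass (edgeR adjusted p = 0.0617). It passed with TAM-KO replicate 1 filled in (-1.36, edgeR adjusted p = 0.0475), and in 1 of 8 fits with 1 library left out.

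In receptor signaling, Tollip, an adaptor that restrains IL-1 receptor signals, fell from 45.1 ± 5.72 FPKM in TAM-WT to 33.8 ± 3.49 FPKM in TAM-KO (SD, n = 4 each), with a log2 fold change of -0.53 ± 0.13 (SE; edgeR adjusted p = 0.0405, 4 TAM-KO libraries tested). When libraries were left out in turn, it passed in 3 of 8 fits, those without TAM-WT replicate 1, TAM-WT replicate 2 and TAM-KO replicate 4, and its adjusted p reached 0.130 without TAM-KO replicate 2. Tab2 and Myd88 were the most abundant of these genes. Myd88, the adaptor shared by the receptors of the family, was at 45.1 ± 7.07 FPKM in TAM-WT (SD, n = 4) and 58.9 ± 4.77 FPKM in TAM-KO (SD, n = 3), with a log2 fold change of 0.28 (edgeR adjusted p = 0.189). Tab2 was at 53.1 ± 2.75 and 50.5 ± 2.37 FPKM (SD, n = 4 each; log2 fold change -0.18, edgeR adjusted p = 0.123).

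Among the adaptor, caspases and effectors, Casp12, a caspase gene next to Casp4, was at 0.53, 0.10, 0.20 and 0.20 FPKM in TAM-WT replicates 1 to 4. In TAM-KO replicates 1 to 4 it was at 0.65, 2.56, 2.02 and 1.10 FPKM. The log2 fold change was 2.83 ± 0.45 (SE; edgeR adjusted p = 0.0182, 3 TAM-KO libraries tested). It came from 4 to 19 reads per library in TAM-WT and 44 to 90 in the 3 tested TAM-KO libraries. TAM-KO replicate 1 had 25 reads in the series table, and with it filled in the log2 fold change was 2.57 (edgeR adjusted p = 0.0284). Among TAM-WT libraries Casp12 was highest in replicate 1, the library with the high T cell and NK cell markers, whose part was not tested. The call was lost when TAM-WT replicate 3 (adjusted p = 0.0555) was left out, as well as with either TAM-KO replicate 2 (0.0784) or replicate 3 (0.0748) left out. Ninj1, which encodes the protein that ruptures the membrane of dying cells, was the most abundant gene of both lists, at 394 ± 38.3 and 267 ± 63.0 FPKM (SD, n = 4 each). Its log2 fold change of -0.67 did not pass (edgeR adjusted p = 0.0707), but did without TAM-KO replicate 4 (0.0179). Casp8, which can also cleave IL-1β, had a log2 fold change of 0.05 (adjusted p = 0.688), and Pycard, the adaptor ASC that links NLRP3 to caspase-1, of 0.09 (adjusted p = 0.458).

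The most abundant sensors and regulators were Txnip and Pstpip1. Txnip, which binds thioredoxin and NLRP3, was at 123 ± 40.3 and 127 ± 8.84 FPKM (SD, n = 4 each; log2 fold change -0.05, edgeR adjusted p = 0.869). Pstpip1, a binding partner of pyrin, was at 46.6 ± 6.12 and 44.2 ± 2.50 FPKM (SD, n = 4 each; log2 fold change -0.18, edgeR adjusted p = 0.365). Of the other ligands and antagonists, 2 of 6 were tested, Il36g with a log2 fold change of 0.94 (adjusted p = 0.0963) and Il33 with -0.10 (adjusted p = 0.826), each below 3 FPKM in every library. Near-identical copies such as Nlrp1a and Nlrp1b or the Naip genes may share reads, so their values are uncertain.

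**Figure D5:**
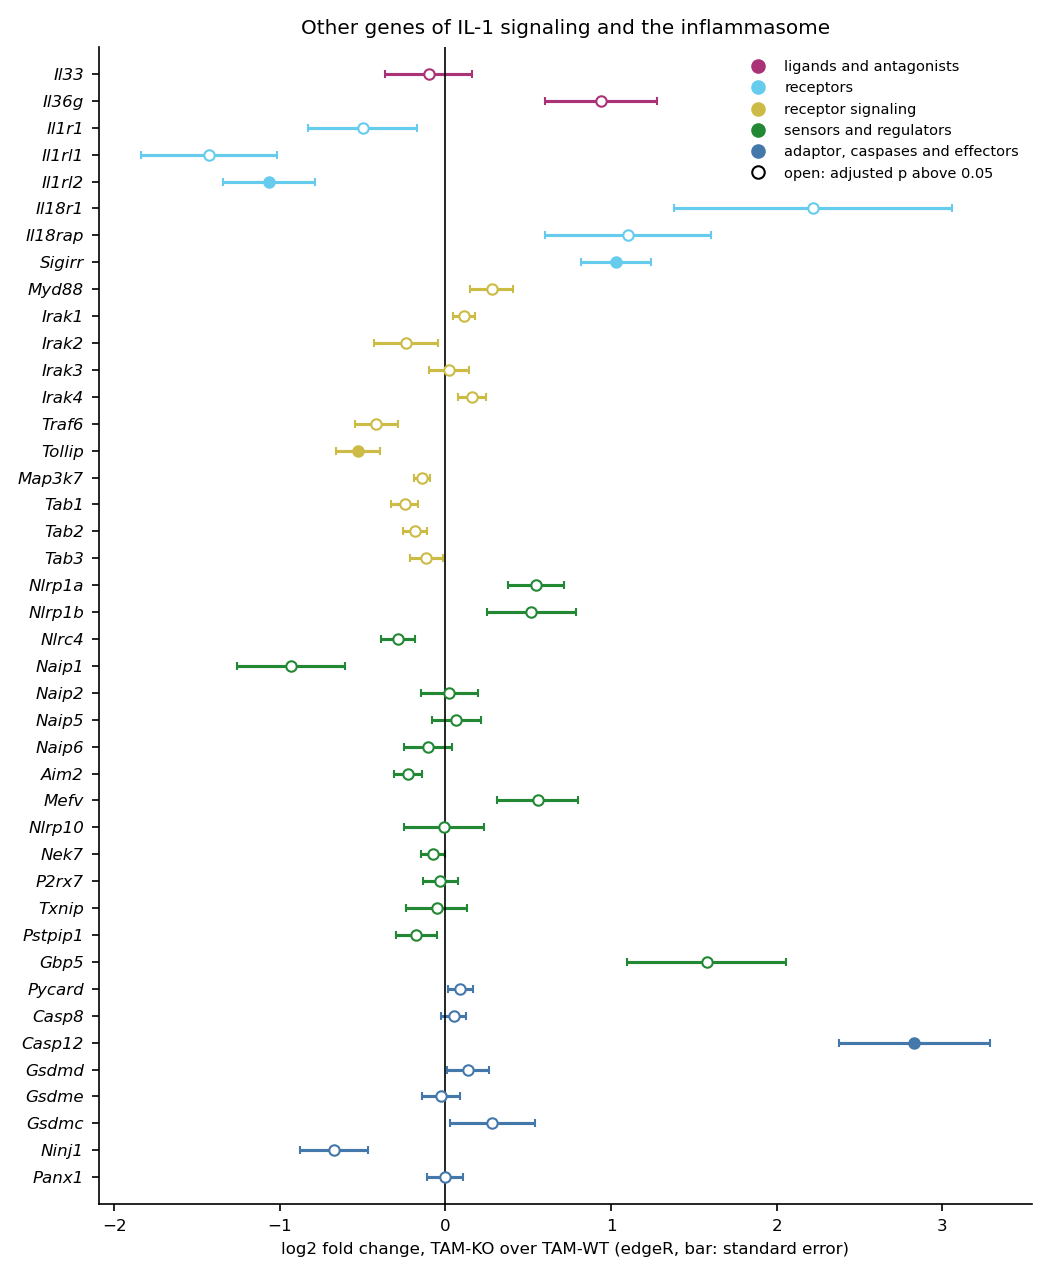
Log2 fold change of TAM-KO over TAM-WT from edgeR (horizontal axis) with the standard error as a bar for the 42 tested genes of the wider pathway, colored by role; filled points passed an adjusted p of 0.05. Only Sigirr (1.03), Casp12 (2.83), Il1rl2 (-1.07) and Tollip (-0.53) are filled.

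Of 12 genes known to respond to IL-1, 10 were tested, 4 of them on 3 TAM-KO libraries. Of the 10, 9 had a log2 fold change below 0, and the median was -1.38. Read as FPKM of single libraries, 0 were lower and 1, Icam1, was higher in TAM-KO without overlap. Over all genes tested 5.41% were lower and 13.5% higher without overlap. Il6 had at most 22 reads in a library. The part of IL-1 itself in these levels was not tested. The list was chosen with earlier results of these data known. The study had already reported Cxcl1 and Cxcl2 as lower in TAM-KO from these libraries, so the counts only describe the list. In edgeR 0 of the 10 passed an adjusted p of 0.05. At an unadjusted p under 0.05, 7 were lower and 0 higher, against 15.7% and 14.9% of all genes. DESeq2 called 5 of the 10 lower and 0 higher, where it called 9.44% of all genes lower and 8.71% higher. With 1 library left out, edgeR called 0 of them in 6 of the 8 fits. It called 6 lower without TAM-WT replicate 1, where 5% of all genes were lower and 4.31% higher, and 2 lower without TAM-WT replicate 2, where 10.5% of all genes were lower and 11.6% higher.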

How the data were processed

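RNA of sorted CD45+F4/80+ cells was measured in 4 TAM-WT and 4 TAM-KO libraries, with genotype and replicate taken from the sample labels. Per the submitters' processing notes, HISAT2 2.0.4, Bowtie2 2.2.5, RSEM 1.2.12 and the build GRCm38.p6 were used; the study's methods name BGISEQ-500 reads, Bowtie2 and RSEM. The authors deposited expected counts, which RSEM estimates per gene without normalization, and FPKM values, scaled by gene length and mapped reads. Log2 ratios and p-values of the authors' own comparison, in the table of the whole series, were not used.

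After rounding, the expected counts entered the quasi-likelihood test of edgeR 4.0.16, run in R 4.3.3 (TMM, filterByExpr, glmQLFit, glmQLFTest), with Benjamini-Hochberg adjustment over 12412 genes, of which 3016 were fitted on 3 TAM-KO libraries. A call is an adjusted p of at most 0.05. FPKM means and SDs include TAM-KO replicate 1 from the series table where listed, 1188 genes in all; 629 misplaced values and 1 mixed line of its own table were left out. The members and lists were chosen with earlier results of these data known. Named genes were all 10 members and, of the wider list, those past the adjusted p and the 2 most abundant in each role; Il1r1, Il1rl1 and Pycard were added after their values were seen. IL-36 genes were matched by NCBI gene number. On simulated counts of 12425 genes, edgeR called 99% of 200 genes changed 4-fold and 8 unchanged genes. The changed genes excluded those with low counts, and no simulated library stood apart. The share called therefore does not give the power for smaller changes in these data. Within a group, libraries differed beyond sampling noise (chi-square per degree of freedom 6.16 to 30.0), so none was counted as a repeat. The alternatives were DESeq2 1.42.0, limma 3.58.1 on log2(FPKM + 1) and log2(FPKM + 0.1), other scalings, filters and thresholds, a replicate block, the filled TAM-KO replicate 1, and each library left out in turn.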

Additional observations from a re-analysis of the deposited data

Results flagged for a closer look

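Among 91 groups of 4 FPKM values of the IL-1 and inflammasome genes, 4 held a library that stood apart, and chance gives about 4.55. The gap of such a library to its nearest neighbor, as a share of the group's range, was above Dixon's 95% critical value. The IL-1 response genes were not examined in this way. Il18r1, the IL-18 receptor, was at 0.84 FPKM in TAM-WT replicate 1 and at most 0.09 FPKM in the other TAM-WT libraries (gap 0.893 of the range). This library also had the highest T cell and NK cell markers of its group. Such cells express Il18r1, and their part in this value was not tested. Irak1, a kinase of IL-1 receptor signaling, was at 37.33 FPKM in TAM-WT replicate 1 (gap 0.850). Tab1 was at 6.31 FPKM in TAM-KO replicate 1 (gap 0.862), and Gsdmc, a gasdermin, at 24.38 FPKM in TAM-WT replicate 2 (gap 0.838).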

How the results depend on the processing

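Il1a kept its direction in all 17 alternatives and lost the call in 4, each with 1 library left out. Il18bp kept its direction in 17 and lost the call in 9. Il1b, Il1rn and Nlrp3 passed in 4, 3 and 1 of 17, and Casp4, Il18, Casp1 and Il1r2 kept direction and side of the threshold in all. Some of these outcomes were fixed in advance. For all genes but Nlrp3, the fit without TAM-KO replicate 1 has the log2 fold change of the main fit, and only the adjustment differs. For Il18, Il1r2, Il1rap and Casp1 the same holds for the fit with that library filled in. Il1rap, near 0, turned to -0.0055 with the replicate block and ran from -0.0027 to 0.0344 with 1 library left out. Of the 10 genes, 0 were higher with DESeq2 size factors, with at least 10 counts in every library, with TAM-KO replicate 1 filled in, or at an adjusted p of 0.01, where 0 were lower either; 3 were lower with DESeq2 or the block. Leaving out 1 library gave 0 to 1 higher and 0 to 3 lower.

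Of the other 42 genes, the 2 higher became 4 with DESeq2, 6 and 5 with limma on log2(FPKM + 1) and log2(FPKM + 0.1), 1 under the stricter filter and 0 at 0.01. The 2 lower became 5 with DESeq2, 1 with DESeq2 size factors, total reads, the stricter filter or a 2-fold change, and 0 at 0.01. With TAM-KO replicate 1 filled in, 2 were higher and 3 lower. Leaving out 1 library gave 0 to 5 and 0 to 9.

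Over all genes, 568 were higher and 650 lower. These became 1081 and 1172 with DESeq2, 916 and 408, and 878 and 406 with limma at the larger and smaller pseudocount, 8 and 28 at an adjusted p of 0.01, and 175 and 139 with a 2-fold change; total reads gave 870 higher and 480 lower. Leaving out 1 library gave 23 to 1448 and 52 to 1307, with the most in both directions without TAM-WT replicate 2. The share of higher calls was 46.6%, against 64.4% with total reads and 69.2% and 68.4% with limma, where the median of all genes shifted by 0.0888, 0.0887 and 0.106 on the log2 scale; Il1a and Il18bp kept their direction and call there. Same-numbered libraries did not deviate together (correlations -0.446, 0.0567, -0.287 and 0.315), so the numbers were not taken to pair libraries. With the replicate block Il1b (-1.24, adjusted p = 0.0413), Il1rn (-1.11, 0.0235), Il1a and Il18bp passed in edgeR, and all genes gave 508 higher and 572 lower. The cause of these changes was not tested. Low counts limit Il1r1, Il33 and Casp12, and the missing TAM-KO replicate 1 limits 9 of the 10 genes.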
